A study of Mus musculus with 3 samples.

Results

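Barcodes rich in transcripts of Ctla2a, Fxyd2, S1pr1, Mmp9 and Serpinb6a were examined among single cells of mouse skin wounds. The study isolated monocytes and macrophages by enzymatic digestion of wounds of male C57BL6/J mice at day 3, day 6 and day 10 after injury, and sequenced the mRNA of single cells caught in droplets, where each molecule is counted by its unique molecular identifier (UMI). A single library stood for each day, prepared from 2 pooled mice, with no treatment. Differences between days therefore describe 3 libraries and carry no error between animals. The libraries held 11199361, 9273960 and 13972817 UMIs at days 3, 6 and 10. Of 4877 barcodes, 2702 had at least 200 genes, at least 2000 UMIs and under 10% of UMIs from the mitochondrial genome. A score was taken in each as the mean of log(1 + UMIs per 10000) over the 5 genes. The 135 barcodes in the top 5% by this score are called members below, and they are compared with the barcodes of the same library outside the top 5% that had at least 1 UMI of C1qa. There were 2 members and 172 other C1qa-positive barcodes at day 3, 33 members and 262 others at day 6, and 100 members and 620 others at day 10.

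Macrophages of healing skin have several sources. Blood monocytes that carry Ccr2 enter the wound and mature in place, while resident dermal macrophages, known for Lyve1, Cd163, Folr2 and Mrc1, take up debris and hemoglobin and persist in the tissue. C1qa, C1qb and C1qc encode the subunits of the complement component C1q, which tissue macrophages secrete. The 5 genes of the score have unlike functions. Ctla2a encodes a small inhibitor of cathepsin L-like cysteine proteases that resembles a cathepsin propeptide. Serpinb6a encodes an intracellular serpin, an inhibitor of serine proteases. Mmp9 encodes gelatinase B, a secreted metalloproteinase that cleaves denatured collagen and that osteoclasts and neutrophils also make. Fxyd2 encodes the gamma subunit of the Na,K-ATPase, the pump that holds the sodium and potassium gradients of the cell. S1pr1 encodes a receptor for sphingosine 1-phosphate, a lipid that guides cells towards blood and lymph and tightens endothelium. In GRCm38, Ctla2a lies at chr13:60934155-60936625, Serpinb6a at chr13:33917918-34002794, Fxyd2 at chr9:45399669-45410278, S1pr1 at chr3:115710433-115715072 and Mmp9 at chr2:164940780-164955850 (GENCODE vM21 annotation).

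Promoter sequences are shown for Ctla2a, which contributed most to the score in 42 of the 135 members, and for 3 genes of MHC class II, a list whose genes at 20 CPM or more were all lower by at least 1.5-fold in day 10 members. They come from RefSeq (GRCm38.p6), run 5′ to 3′ on the strand of the gene and cover 250 bases before to 50 bases after the annotated start. Where several starts were listed for a gene, the most upstream was used. The table used held 2 of the 5 score genes and 6 of 9 class II genes. Capitals mark matches to letters searched on both strands. In the Ctla2a window (chr13:60936576-60936875, minus strand) they mark TGACTCA, a match to the AP-1 letters TGANTCA, 129 bases before the start. These letters occur in 2565 of 32851 promoters of the same length (7.81%).
Ctla2a: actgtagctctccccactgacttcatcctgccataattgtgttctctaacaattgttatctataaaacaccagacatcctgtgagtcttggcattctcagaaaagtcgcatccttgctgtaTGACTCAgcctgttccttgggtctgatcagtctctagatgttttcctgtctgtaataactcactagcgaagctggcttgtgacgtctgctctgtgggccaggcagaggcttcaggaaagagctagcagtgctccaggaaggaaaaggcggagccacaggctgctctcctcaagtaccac
In the class II windows capitals mark TGATTGG, the core of the Y box that the factor NF-Y binds, and AACTGATGATGCT, the longest run of letters that the H2-Eb1 and H2-DMb1 windows share, which belongs to the X box that RFX binds. The 2 motifs do not overlap in these windows. TGATTGG occurs in 2568 promoters (7.82%) and AACTGATGATGCT in 3 (0.00913%), those of H2-DMb1, H2-Eb1 and Slc39a10. H2-Aa is at chr17:34287774-34288073 (minus strand), H2-Eb1 at chr17:34305617-34305916 (plus strand) and H2-DMb1 at chr17:34152941-34153240 (plus strand).
H2-Aa: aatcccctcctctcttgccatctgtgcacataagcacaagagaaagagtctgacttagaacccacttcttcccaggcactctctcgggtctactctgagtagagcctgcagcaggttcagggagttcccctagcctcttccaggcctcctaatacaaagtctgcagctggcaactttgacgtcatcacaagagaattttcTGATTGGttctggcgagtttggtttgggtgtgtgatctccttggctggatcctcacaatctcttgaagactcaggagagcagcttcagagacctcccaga
H2-Eb1: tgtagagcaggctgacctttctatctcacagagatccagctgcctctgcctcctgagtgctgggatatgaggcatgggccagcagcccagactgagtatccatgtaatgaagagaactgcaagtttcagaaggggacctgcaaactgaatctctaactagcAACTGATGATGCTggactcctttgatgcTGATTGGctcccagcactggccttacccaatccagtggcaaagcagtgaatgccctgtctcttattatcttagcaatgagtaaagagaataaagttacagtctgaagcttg
H2-DMb1: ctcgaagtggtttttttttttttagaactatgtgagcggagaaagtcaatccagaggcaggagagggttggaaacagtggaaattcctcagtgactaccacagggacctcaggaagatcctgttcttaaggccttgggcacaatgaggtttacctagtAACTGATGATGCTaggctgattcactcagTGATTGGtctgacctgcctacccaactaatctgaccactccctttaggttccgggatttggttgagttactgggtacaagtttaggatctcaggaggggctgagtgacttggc
The Y box core lies 50, 61 and 63 bases before the start of H2-Aa, H2-Eb1 and H2-DMb1. The X box stretch lies 89 and 92 bases before the start of H2-Eb1 and H2-DMb1 and was not found with these exact letters in the H2-Aa window.

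Most members belonged to day 10, but the day 6 library held nearly as large a share. Members made up 0.228% of the kept barcodes at day 3, 5.99% at day 6 and 7.86% at day 10, with exact binomial 95% intervals of 0.0276 to 0.819%, 4.16 to 8.31% and 6.44 to 9.48%. The intervals of days 6 and 10 overlap, and that of day 3 lies below both. Of all 135 members, 74.1% came from day 10, 24.4% from day 6 and 1.48% from day 3. These and all other intervals given here cover counting error only, since barcodes of 1 library are not replicates. One of the day 3 members had 88 C1q UMIs with 2 UMIs of Ctla2a, 7 of Fxyd2, 3 of S1pr1 and 8 of Serpinb6a. The other had no C1q UMI and no Ctla2a or Fxyd2, with 1 UMI of S1pr1, 5 of Mmp9 and 7 of Serpinb6a. With 2 members, day 3 is left out of the comparisons below.

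The label of macrophages held for most members and not for all. The list of 20 monocyte and macrophage markers summed to 53193 UMIs per 1000000 (CPM) in day 10 members, 38408 CPM in the other C1qa-positive barcodes and 17031 CPM in barcodes without C1qa. C1qa itself was at 3695 CPM in members and 2096 CPM in the other C1qa-positive barcodes, and 91 of 100 members at day 10 and 28 of 33 at day 6 had a UMI of it. The member barcodes were of like size, with a median of 8307 UMIs against 8082.5 UMIs at day 10. However, 6 members, 5 of day 10 and 1 of day 6, carried 29 to 234 UMIs of endothelial markers with 0 to 4 UMIs of C1q genes, while the other 129 members had at most 5 endothelial UMIs. Without these 6, Plvap, Emcn, Esam, Egfl7 and Ramp2, markers of blood vessel endothelium, were at 0 in day 10 members. The summed endothelial list was 666 CPM in day 10 members, 65.4 CPM without these barcodes and 37.0 CPM in the other C1qa-positive barcodes. Ctla2a and S1pr1 are also known from endothelium.

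**Figure D1:**
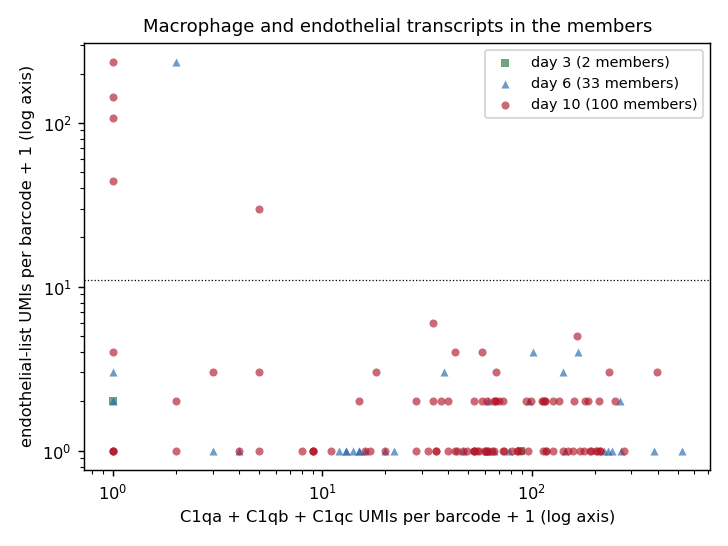
C1q UMIs (C1qa, C1qb and C1qc summed, plus 1) on the x axis against UMIs of the endothelial list (plus 1) on the y axis, both logarithmic, for the 135 member barcodes coloured by day; the dotted line marks 10 endothelial UMIs. The 6 barcodes above the line have 0 to 4 C1q UMIs, and the other 129 have at most 5 endothelial UMIs.

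A few members were rich in some of the transcripts known from osteoclasts, the bone-resorbing relatives of macrophages. The osteoclast list summed to 589 CPM in day 10 members and 210 CPM in the other C1qa-positive barcodes, and to 772 against 270 CPM at day 6. Of its 7 genes, Calcr, Dcstamp and Oscar had no UMI in day 10 members, and Calcr and Oscar none in day 6 members. The list was higher, at 926 CPM, in the day 10 barcodes of the top 5% by Mmp12, Lpl and Gpnmb, a set described below. The largest member barcode of day 10, with 27381 UMIs, held 214 UMIs of Ctsk (cathepsin K), 100 of Acp5 (tartrate-resistant acid phosphatase), 63 of Fxyd2 and 9 of Mmp9, with 1 UMI of C1qa, none of C1qb or C1qc and 1 of Lyz2. The largest of day 6, with 55218 UMIs, held 102 UMIs of Ctsk, 138 of Acp5 and 48 of Atp6v0d2, a proton pump subunit. It also held 1415 UMIs of Lyz2, 14 of C1qb and 7 of C1qc, with none of C1qa. Ctsk was at 411 CPM in day 10 members against 97.8 CPM in the other C1qa-positive barcodes, and 56.8% of its member UMIs came from that 1 barcode. Without it Ctsk was 1.87-fold higher (95% counting interval 1.56 to 2.23) and Acp5 lay at 67.4 against 100 CPM. Within the cluster that held most members, described below, Ctsk and Acp5 were called lower in members. Day 10 members had 97.0 CPM of neutrophil markers against 134 CPM in the others, 82.8 against 34.2 CPM of fibroblast markers, and 33.8 against 96.1 CPM of dendritic cell markers. The erythroid and platelet list, which includes Pf4, was at 7932 against 4105 CPM. The plasmacytoid dendritic cell list was at 563 against 344 CPM and the B cell list at 59.9 against 28.9 CPM. The lymphatic endothelial list was at 722 against 433 CPM, with Pdpn its only gene detected. Natural killer and innate lymphoid markers (21.8 against 102 CPM) and Langerhans cell markers (21.8 against 39.4 CPM) were lower. Keratinocyte, T cell, mast cell and melanocyte lists were at 9.80 CPM or less in members.

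The levels of the score genes chose the members and are given as a description. At day 10, Ctla2a stood at 650 CPM (95% counting interval 599 to 705) in members, 30.5 CPM in the other C1qa-positive barcodes and 6.67 CPM in barcodes without C1qa. Fxyd2 was at 528, 56.2 and 10.5 CPM in the same 3 sets, S1pr1 at 179, 43.6 and 7.21 CPM, Mmp9 at 210, 15 and 6.49 CPM, and Serpinb6a at 588, 181 and 30.3 CPM. At day 6, Ctla2a was at 781 CPM in members against 19.5 CPM in the other C1qa-positive barcodes, Fxyd2 at 303 against 45.2 CPM, S1pr1 at 102 against 24.8 CPM, Mmp9 at 48.9 against 3.10 CPM, and Serpinb6a at 761 against 224 CPM. Single barcodes weighed on some of these sums, with 42.7% of Ctla2a and 59.1% of Mmp9 UMIs of day 6 members in 1 barcode each, and 20.2% of Mmp9 UMIs at day 10.

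**Figure D2:**
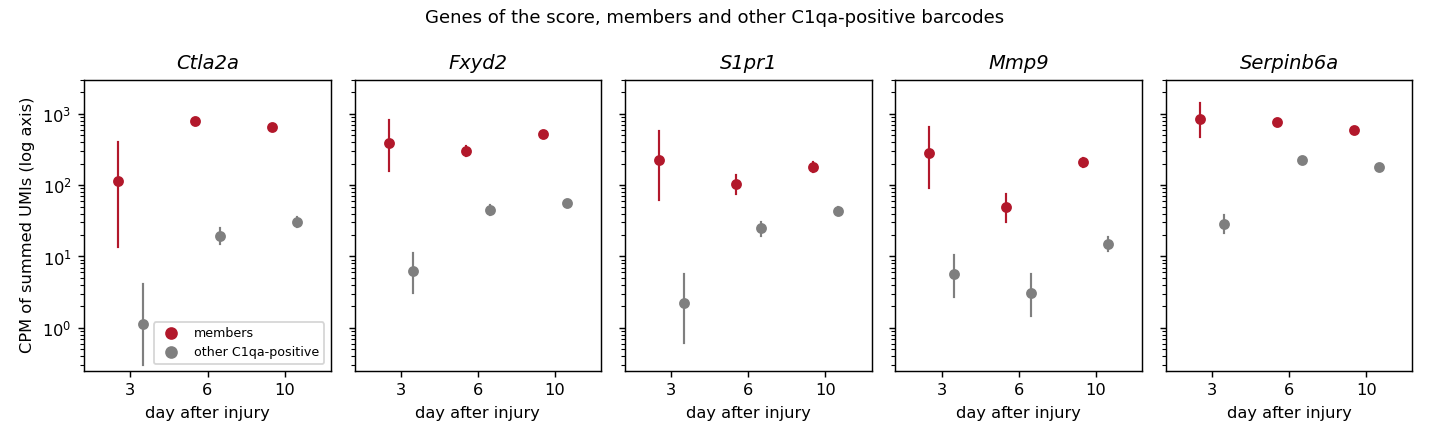
Level in CPM (log axis) of the 5 score genes by day, with members left of other C1qa-positive barcodes and bars for 95% Poisson intervals. Members lie above the other barcodes for each gene at days 6 and 10, as the choice of members requires, with Ctla2a at 650 CPM and 30.5 CPM at day 10.

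The members did not share 1 pattern of the 5 genes. All 5 were detected in 6 of 135, while 39 had 4, 67 had 3, 22 had 2 and 1 had 1. The most common sets were Ctla2a, S1pr1 and Serpinb6a together in 31 barcodes, and the same set with Fxyd2 in 28. Fxyd2, Mmp9 and Serpinb6a without the other two made up 12 barcodes. Serpinb6a was detected in 96% of day 10 members, Ctla2a in 71%, S1pr1 in 68%, Fxyd2 in 61% and Mmp9 in 26%. After each barcode was thinned to 2000 UMIs, the shares were 69% for Serpinb6a, 51% for Ctla2a, 33% for S1pr1, 35% for Fxyd2 and 17% for Mmp9. The other C1qa-positive barcodes, thinned alike, had 26.8%, 4.84%, 11.5%, 11% and 1.77%, and barcodes without C1qa, with a median of 9675 UMIs before thinning, had 6.52%, 0.725%, 1.45%, 2.54% and 1.81% of the same genes in the same order. The cut fell within a continuous range of scores. The last member had a score of 0.818845, from 4 UMIs of Mmp9 and 2 of Serpinb6a, and the first barcode outside had 0.818717, from 1 UMI of Fxyd2, 2 of S1pr1 and 3 of Serpinb6a.

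Each score gene was next examined in members chosen without it, so that its own counts did not choose the barcodes. The 5 genes were, however, picked together with earlier results of these data known. Higher levels of each beside the other 4 can follow from that choice, so these ratios are a description too. At day 10 each of the 5 was higher in the top 5% by the other 4 genes than in the remaining C1qa-positive barcodes. Mmp9 was at 119 against 30.9 CPM (3.86-fold, 95% counting interval 2.99 to 4.95), and 2.43-fold higher without the barcode that held 39 of its 102 UMIs. Fxyd2 was at 257 against 88.4 CPM (2.91-fold, 2.48 to 3.4), S1pr1 at 137 against 49.7 CPM (2.77-fold, 2.22 to 3.43), Ctla2a at 249 against 94.3 CPM (2.64-fold, 2.24 to 3.09), and Serpinb6a at 471 against 196 CPM (2.40-fold, 2.14 to 2.68). Without the endothelial-marker barcodes the ratio of Ctla2a was 1.95. At day 6 the ratios were 11.3 for Ctla2a, 2.73 for Fxyd2, 2.81 for S1pr1 and 2.0 for Serpinb6a. One barcode held 150 of the 211 Ctla2a UMIs there, and without it the ratio of Ctla2a was 3.42 (2.49 to 4.64). For the other values, leaving out the barcode with most UMIs of the gene moved the ratio by less than 1.5-fold. For Mmp9 the day 6 counts were too few, at 2 UMIs in 34 barcodes against 17 in 260. Between 62 and 88 of the barcodes chosen by 4 genes at day 10 were also members by all 5.

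Other genes of the families of the score genes were compared at day 10 too. A gene is called here when its CPM ratio reached 1.5-fold, among 5469 genes with an average of at least 20 CPM over members and others. Of these, 530 genes (9.69%) were called higher and 301 (5.5%) lower in members. Scaling by trimmed means (TMM) in place of total UMIs shifted all log2 ratios by 0.16 and turned this split to 292 higher and 492 lower. With the score genes left out, 1 of 13 genes of cathepsins and their inhibitors, 0 of 3 of the Na,K-ATPase family, 2 of 11 of the sphingosine 1-phosphate pathway and 2 of 11 of the metalloproteinases were called higher, counts too small to set apart from the 9.69% of all genes. Of 14 genes of cathepsins and their inhibitors, Ctla2a and Ctsk were called higher and none lower. Cathepsin L itself (Ctsl) was at 3749 CPM in members and 3126 CPM in others (1.2-fold), Ctsb at 1.13-fold, and the inhibitor cystatin C (Cst3) at 0.980-fold. Ctla2b, the close paralog of Ctla2a, had 23 UMIs in members and 45 in others, a 3.08-fold ratio (1.78 to 5.2) below the level for entry, and reads of near-identical paralogs can be split between them. Of the serpin genes, Serpinb6a was called higher. Fxyd2 was the 1 gene called of 4 in the Na,K-ATPase family, where Fxyd5, another regulator of the pump, had a ratio of 0.799. Of 12 genes of the sphingosine 1-phosphate pathway, S1pr1, the phosphatase Sgpp1 (51.2 against 27.6 CPM) and the lipid phosphatase Plpp3 (41.4 against 14.8 CPM) were called higher. Sgpl1, the lyase that degrades the lipid, had a ratio of 1.24, and Klf2, a factor that drives S1pr1 in lymphocytes, 0.980. Among 12 metalloproteinase genes Mmp9, Timp1 and Timp2 were called higher and Mmp12 lower. Timp2 and Timp1, inhibitors of these enzymes, were at 858 against 425 CPM and at 221 against 101 CPM. Mmp12, the macrophage elastase, was at 402 against 912 CPM.

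Transcripts of resident dermal macrophages were the main group higher in day 10 members. Of 13 genes of this list, 11 were called higher and none lower, with a median log2 ratio of 1.79 beside 0.11 for all 5469 genes. Cd163, the receptor for hemoglobin bound to haptoglobin, was at 174 CPM in members and 22.4 CPM in others (7.78-fold, 6.11 to 9.91). Lyve1, a hyaluronan receptor, was at 103 against 5.6 CPM (18.5-fold, 12.2 to 28.7). Single barcodes weighed on this sum too. In the 33 day 10 members where Serpinb6a contributed most to the score, 1 barcode held 44.8% of the Lyve1 UMIs. Ccl8, a chemokine, was at 836 against 93.8 CPM (8.91-fold, 7.96 to 9.98), with 26.5% of its member UMIs in 1 barcode. The scavenger receptor and carbonyl reductase genes followed, with Mrc1 at 873 against 382 CPM (2.29-fold, 2.10 to 2.48) and Cbr2 at 210 against 50.4 CPM (4.17-fold, 3.45 to 5.03). Folr2, the folate receptor beta of macrophages, was at 257 against 74.1 CPM (3.47-fold, 2.94 to 4.08) and was detected in 60 of 100 members. Gas6, a bridge between dying cells and the receptors that engulf them, was at 194 against 61.1 CPM (3.17-fold, 2.63 to 3.82). The lectin Cd209f had the highest ratio of the list, with 66 UMIs in 10 member barcodes against 10 UMIs in the others.

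These genes were detected in a part of the members. After thinning to 2000 UMIs and without endothelial-marker barcodes, Cd163 was detected in 17.9% of members and 3.06% of others, Ccl8 in 26.3% and 3.55%, Folr2 in 31.6% and 12.3%, Cbr2 in 22.1% and 8.23%, and Mrc1 in 68.4% and 41.9%. Among all 135 members, 45 (33.3%) were also in the top 5% by Lyve1 and Cd163. When those barcodes and the endothelial-marker ones were left out of both sets, 62 members and 586 others remained, and 5 of 8 genes of the list were still called higher, namely Ccl8, Gas6, Folr2, Cbr2 and Mrc1, beside 8.75% of all genes. The median log2 ratio was then 0.82. The summed list was 2218 CPM in members and 1460 CPM in others, against 4205 and 1702 CPM with all barcodes.

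Of the 12 genes with the largest ratios outside the score, among genes at 100 CPM or more in 1 set, several belonged to the endothelial-marker barcodes. Igfbp7, a secreted protein of vessel walls, had 218 UMIs in members and 2 in others, and 1 and 2 UMIs without the endothelial-marker barcodes. Aqp1, a water channel, was at 196 against 1.45 CPM, a ratio of 136 that became 2.38 without them. Fabp4, a fatty acid carrier, was at 492 against 21.3 CPM with all barcodes and 1.69-fold lower in members without them. The matricellular protein gene Sparc and the secreted glycoprotein gene Lrg1 had ratios of 12.6 and 9.56, and 2.12 and 1.52 without them. The other 7 stayed past 1.5-fold without these barcodes. C4b, a complement component that acts after C1q, was at 197 against 26.9 CPM (7.32-fold, 5.86 to 9.16). Tns1, which links integrins to actin, was at 106 against 29.8 CPM (3.54-fold, 2.73 to 4.58).

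**Figure D3:**
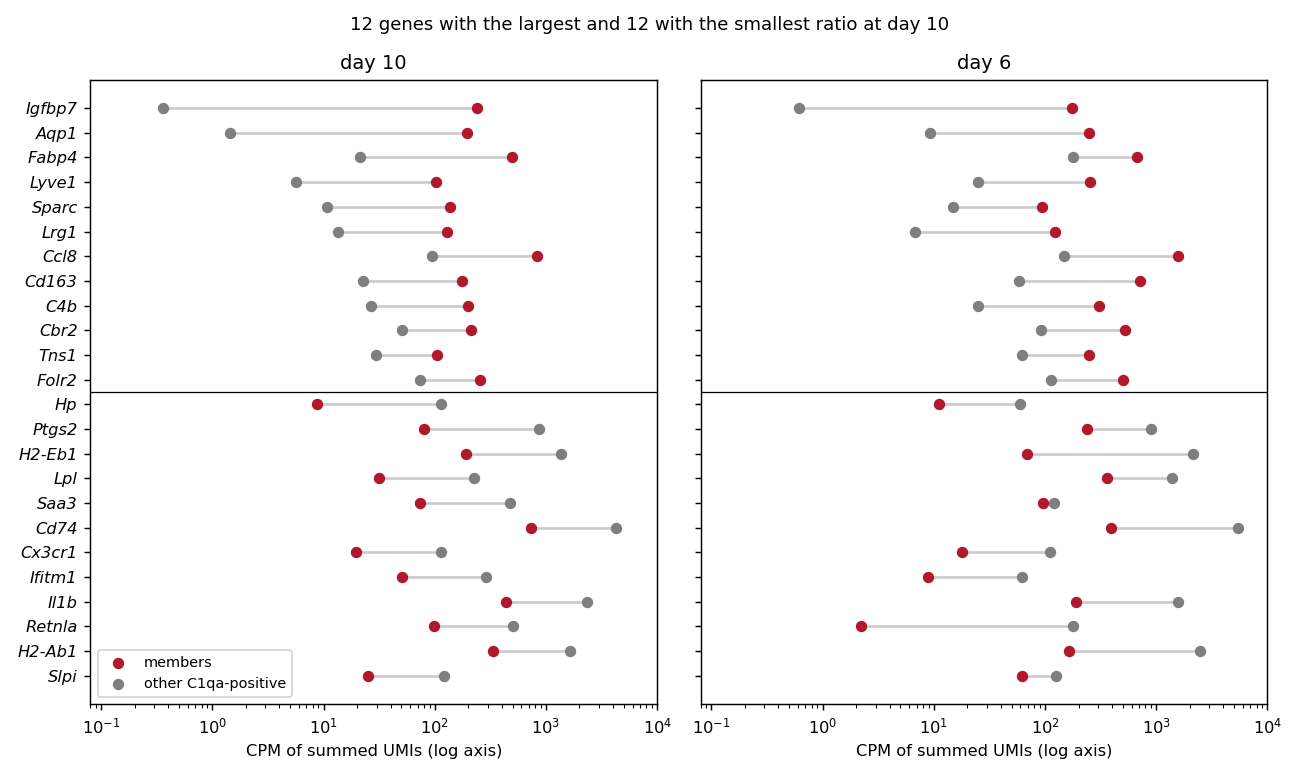
Level in CPM (log axis) of the 12 named genes of each direction at day 10, in members (red) and other C1qa-positive barcodes (grey), at day 10 and day 6. Cd163 lies at 174 and 22.4 CPM at day 10, and Ptgs2 at 80.6 and 869 CPM. All 12 genes higher and 11 of the 12 lower are past 1.5-fold the same way at day 6. Of all genes at day 6, 19.8% were called higher and 9.14% lower. Without endothelial-marker barcodes, 8 of the 12 higher are past 1.5-fold at day 6.

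Genes of antigen presentation on MHC class II were lower in day 10 members as a whole set. All 6 that entered were called lower, with a median log2 ratio of -2.25, and the 9 genes measured summed to 1662 CPM in members and 9087 CPM in others. Cd74, the invariant chain that guards the class II groove, was at 727 against 4281 CPM (5.89-fold lower, 5.46 to 6.37). The class II chain genes H2-Eb1 and H2-Ab1, whose family promoters are printed above, were at 190 against 1378 CPM (7.27-fold lower, 6.25 to 8.50) and at 337 against 1636 CPM (4.86-fold lower, 4.34 to 5.46). H2-DMa and H2-DMb1, which load peptides, were at 45.8 against 155 CPM and at 42.5 against 140 CPM. The windows of H2-Eb1 and H2-DMb1 held both motifs and these genes were 7.27-fold and 3.28-fold lower. H2-DMa was 3.39-fold lower. Its window, at the most upstream listed start and not printed above, held neither motif with these exact letters. A motif with other letters or outside this window would not be seen, and a link of the motifs to the ratios was not tested. Per barcode the sets overlapped, with H2-Ab1 detected in 21.1% of thinned members and 31.6% of thinned others and Cd74 in 18.9% and 36.0%. MHC class I genes did not follow, with 0 of 11 called. Dendritic cell markers, in cells that carry much class II, were also lower in members, as given above, and the class II difference within 1 cluster is given below.

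Inflammatory mediators were lower as well. Of 11 genes of the cytokine and enzyme list, 8 were called lower and 1 higher (median log2 -1.61), and the list summed to 1052 CPM in members and 4225 CPM in others. Ptgs2, the cyclooxygenase induced in inflammation, was at 80.6 against 869 CPM (10.8-fold lower, 8.57 to 13.8). Il1b was at 434 against 2358 CPM (5.44-fold lower, 4.92 to 6.02) and was detected in 24.2% of thinned members and 48.1% of thinned others. Nos2, the inducible nitric oxide synthase, had 5 UMIs in members and 265 in others (8.79-fold lower, 3.72 to 27.3). The 1 gene called higher was Ptges, which makes prostaglandin E2 downstream of Ptgs2, at 58.8 against 22 CPM. Of 10 classical monocyte genes, 7 were called lower and none higher. Among them Ccr2, the receptor that brings monocytes out of the marrow, was at 126 against 334 CPM (2.64-fold lower, 2.19 to 3.21) and Hp, haptoglobin, at 8.71 against 113 CPM (13-fold lower, 6.56 to 30.2), a difference that turned to a log2 ratio of 0.26 when members were chosen on thinned barcodes. Chil3, a lectin of monocytes and alternatively activated macrophages, had 3 UMIs in members (13.5-fold lower, 4.58 to 66.2).

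Other named genes lower in members included Cx3cr1, the fractalkine receptor, at 19.6 against 115 CPM, and the interferon-induced membrane protein gene Ifitm1 at 51.2 against 286 CPM. Lpl, lipoprotein lipase, was at 31.6 against 224 CPM (7.11-fold lower, 4.92 to 10.7), and Spp1, osteopontin, at 669 against 2778 CPM. Slpi, a secreted inhibitor of leukocyte proteases, was at 25.1 against 121 CPM. The acute phase gene Saa3 was at 74.1 against 477 CPM and the resistin-like gene Retnla at 99.1 against 506 CPM, but 70.6% and 92.3% of their member UMIs came from 1 barcode each. Saa3 had a log2 ratio of 1.01 when Ctla2a was left out of the score. Chemokines split, with Ccl8, Ccl24, Ccl12, Cxcl3 and Ccl6 called higher and Ccl4, Cxcl2, Cxcl1 and Ccl2 lower of 13. Ccl6 was at 997 against 552 CPM and Cxcl2, which attracts neutrophils, at 5072 against 11432 CPM. All 12 genes of each direction stayed past 1.5-fold when the mean of CPM per barcode replaced the sum, which called 10.9% of all genes higher and 5.98% lower.

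The mature macrophage list sat between these. Of 16 genes, Mrc1, C1qa, Apoe and C1qc were called higher, and Cd14, a receptor for bacterial lipopolysaccharide, and Fcgr1 lower. Apoe, the lipid carrier of macrophages, was at 22410 against 12815 CPM (1.75-fold, 1.72 to 1.78) and was detected in 97.9% of thinned members and 93.7% of thinned others. Hmox1, which degrades heme, was at 2551 against 1623 CPM (1.57-fold, 1.5 to 1.65), and Hif1a, the oxygen-regulated transcription factor subunit, at 886 against 550 CPM (1.61-fold, 1.49 to 1.74). The other 13 hypoxia genes were not called, nor were any of 16 glycolysis, 21 oxidative phosphorylation and 18 lysosome genes. Genes induced by tissue dissociation were lower, with 10 of 22 called lower and none higher. Of these the immediate early gene Egr1 was at 269 against 863 CPM and the AP-1 subunit genes Junb and Fosb were also called lower. The part of dissociation in the other differences was not tested.

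**Figure D4:**
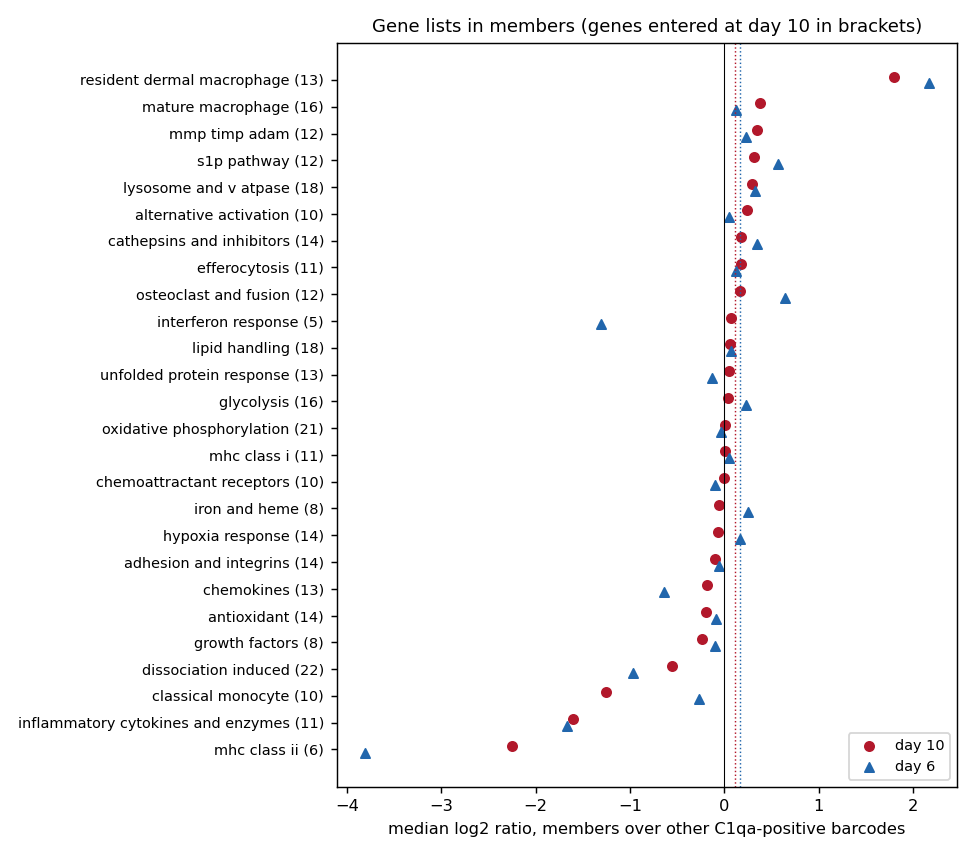
Median log2 ratio of members over other C1qa-positive barcodes at day 10 (circles) and day 6 (triangles), with dotted lines at the medians of all genes (0.11 and 0.17). Gene lists with at least 5 genes entered at day 10 are shown, except a list of late-wound genes. As a mean of CPM per barcode at day 10, 4 of its 12 genes were higher and 4 lower, beside 10.9% and 5.98% of all genes. Resident dermal macrophage genes lie at 1.79 and 2.17, MHC class II genes at -2.25 and -3.81 and inflammatory genes at -1.61 and -1.67.

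The members were not a cluster of their own. Clustering of the 2702 barcodes gave 13 clusters, and members lay in 6 of them, with 79 (58.5%) in the one whose leading genes include Ctla2a, Serpinb6a, Gas6 and Folr2. A further 18 lay in a cluster led by hemoglobin genes, Lyve1 and Ccl8, 15 in one led by Mt2 and Nos2, 12 in one led by Ptges and Inhba, and 9 in one led by Igfbp7, Tagln and Aqp1. To compare like with like, the 59 day 10 members of the largest set were placed beside the other 218 C1qa-positive barcodes of that cluster and day, without endothelial-marker barcodes. In this cluster 604 of 5475 genes (11%) were called higher and 439 (8.02%) lower. The class II difference was small there, with 2 of 6 genes called lower, a median log2 ratio of -0.23 and sums of 499 CPM in members and 683 CPM in others. H2-Ab1 was at 136 CPM in members and 143 CPM in others. The resident macrophage genes kept a difference, with 8 of 11 called higher and sums of 4173 against 2487 CPM. Cd163 was at 186 against 28.2 CPM (6.61-fold, 4.60 to 9.63), Lyve1 at 104 against 3.68 CPM, and Ccl8 at 633 against 105 CPM (6.05-fold, 5.0 to 7.33). Folr2 narrowed to 249 against 159 CPM (1.57-fold, 1.25 to 1.95). Of 6 inflammatory genes, Ptgs2, Il1rn, Il1b and Tnf were called lower, with Ptgs2 at 32.1 against 222 CPM and Il1b at 130 against 326 CPM. Members and others were in the same cluster here, so their overall profiles were alike by construction, and the score genes were among the genes clustered.

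At day 6 the 33 members differed from the other 262 C1qa-positive barcodes in the same groups of genes. Of 5811 genes, 1150 (19.8%) were called higher and 531 (9.14%) lower, and TMM scaling gave 568 and 931. The 3 largest of the 33 barcodes held 25.2% of the UMIs, against 7.71% at day 10, so single cells weigh more. Of the resident macrophage genes 12 of 13 were called higher and 1, Mgl2, lower, with sums of 6886 CPM in members and 1873 CPM in others. Cd163 was at 714 against 57.9 CPM (12.3-fold, 10.3 to 14.8) and Folr2 at 505 against 112 CPM (4.50-fold, 3.80 to 5.33). All 7 class II genes were called lower, with sums of 821 against 12908 CPM and H2-Eb1 at 69.0 against 2145 CPM (31.1-fold lower, 21.9 to 45.8). Of 10 inflammatory genes 9 were called lower, with Il1b at 189 against 1564 CPM, although 56.5% of its member UMIs came from 1 barcode. The interferon response was another group at this day, with 12 of 14 genes called lower, while 5 genes entered at day 10 and 1 was called in each direction. The difference between the days in these ratios was not tested. Of the 12 genes named higher at day 10, all 12 were called higher at day 6 and 8 were without endothelial-marker barcodes, where 19.8% of all genes were. Of the 12 named lower, 11 were called lower, and Saa3 lay at 95.7 against 120 CPM. Apoe was at 10041 CPM in day 6 members and 11514 CPM in others, and Hmox1 at 1182 and 1199 CPM, so these were not called at day 6.

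Members of day 10 were then placed beside members of day 6. Of 5828 genes, 540 (9.27%) were called higher and 1137 (19.5%) lower at day 10, and TMM scaling gave 856 and 750. Genes of the response to low oxygen were higher at day 10, with 8 of 13 called and none lower, and sums of 3995 CPM at day 10 and 2014 CPM at day 6. Egln3, the prolyl hydroxylase that marks HIF proteins for decay, was at 146 CPM in day 10 members and 21.4 CPM in day 6 members without endothelial-marker barcodes (6.81-fold). The mitophagy gene Bnip3 was at 712 against 242 CPM (2.94-fold). The other C1qa-positive barcodes had nearly the same ratios between the days, 6.51 for Egln3 and 3.29 for Bnip3. Hif1a differed more between days in members, at 905 against 264 CPM (3.43-fold), than in the others, at 550 against 287 CPM (1.92-fold). Fosb, Rgcc and Clec4n had ratios of 5.52, 8.0 and 6.15 in members, against 1.04, 1.42 and 1.96 in the others. The ratio of Rgcc was 2.18 with the mean of CPM per barcode, and whether the ratios differ between members and others was not tested.

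Several of the named genes lower in day 10 members than in day 6 members were lower in the other barcodes of day 10 as well. Tsc22d3, which encodes GILZ, a protein induced by glucocorticoids, was at 59.6 CPM in day 10 members and 402 CPM in day 6 members (6.74-fold lower) and was 4.86-fold lower in the others. Fkbp5 was at 19.5 against 109 CPM (5.61-fold lower), and 5.68-fold lower in the others. The heat shock gene Hsph1 and the factor Klf9 were 6.81-fold and 4.63-fold lower in members and 4.34-fold and 2.45-fold lower in the others. Lpl was 11.9-fold lower in members and 6.13-fold lower in the others, and Gpnmb, of lysosomes and lipid-laden macrophages, 4.88-fold and 4.32-fold. Il10 had 2 UMIs in day 10 members against 70 UMIs in day 6 members, which lay in 4 barcodes. The summed levels of class II genes ran in opposite directions in members and others. H2-Eb1 was at 198 CPM in day 10 members and 73.7 CPM in day 6 members. In the other barcodes it was at 1378 CPM at day 10 and 2154 CPM at day 6. The shares of thinned members with a UMI did not rise. They were 10.5% at day 10 and 12.5% at day 6 for H2-Eb1, 21.1% and 31.3% for H2-Ab1, and 18.9% and 25% for Cd74, with overlapping intervals. Single barcodes held 60.6% and 68.5% of the H2-Ab1 UMIs in the day 10 members led by Ctla2a and by Serpinb6a. All 6 class II genes entered were called higher at day 10 in members, and 3 of 6 with the mean of CPM per barcode, beside 13.4% of all genes. Resident macrophage genes were lower at day 10, with 8 of 14 called lower and 2 higher, at sums of 4205 against 6886 CPM.

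**Figure D5:**
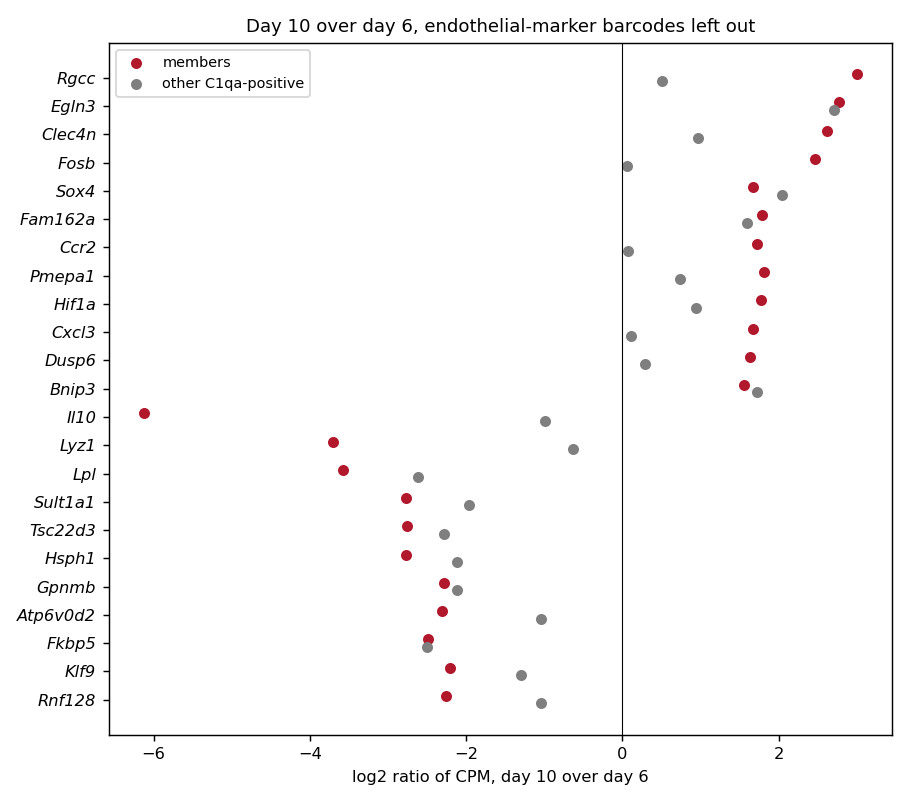
Log2 ratio of day 10 over day 6 for the named genes of this comparison, in members (red) and other C1qa-positive barcodes (grey), without endothelial-marker barcodes. Egln3 has ratios of 6.81 and 6.51 and Fosb of 5.52 and 1.04 in members and others.

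Members of day 10 were also placed beside 4 other sets of barcodes, each the top 5% by genes of another macrophage state. Over all days, members shared 6 barcodes (4.44% of the 135) with the top 5% by Nos2, Mt2 and Saa3, 5 (3.70%) with that by Axl, Pdgfb and Tmem119, and 5 (3.70%) with that by Mmp12, Lpl and Gpnmb. Each set holds 5% of all kept barcodes, so these overlaps lie near that share and do not set the members apart. At day 10 they were 4%, 2% and 2% of the 100 members. The overlap with the top 5% by Lyve1 and Cd163 was larger, with 33 of the 100 day 10 members (33%). It made up 40.2% of the 82 day 10 barcodes of that set, which were drawn from 1272 kept barcodes. Shared barcodes count in both sums. Class II genes summed to 1662 CPM in members, 744 CPM in the Nos2 set, 11706 CPM in the Axl set, 4349 CPM in the Mmp12 set and 25006 CPM in the Lyve1 set. Inflammatory genes summed to 1052 CPM in members, against 8510, 4526, 3789 and 597 CPM in the same order, and resident macrophage genes to 4205 CPM, against 1932, 873, 676 and 6306 CPM. When the barcodes that members and the Lyve1 set share were left out of both, resident macrophage genes summed to 2129 CPM in members and 4650 CPM in the Lyve1 set, so the members' higher sum rested in part on the shared barcodes. With shared barcodes counted in both, Ctla2a was at 650 CPM in members, 343 CPM in the Lyve1 set and 20.7 to 31.1 CPM in the other 3.

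Within the members, the gene that contributed most to the score divided the barcodes. Serpinb6a led in 57 of 135 members (34 at day 10), Ctla2a in 42 (35), Fxyd2 in 20 (16), Mmp9 in 11 (10) and S1pr1 in 5 (5). This split follows the score genes by construction, and the other genes are given without a test, at day 10 and without endothelial-marker barcodes. The 32 barcodes led by Ctla2a had 3906 CPM of C1qa and the highest Hmox1 level of these sets at 4470 CPM, with 149 CPM of Spp1 and 26.2 CPM of Mmp12. The 33 led by Serpinb6a had 5329 CPM of C1qa, 275 CPM of Cd163, 202 CPM of Lyve1 and 1339 CPM of Ccl8. These resident genes were not particular to them. Cd163 was at 301 CPM in those led by Mmp9 and Ccl8 at 1262 CPM in those led by Fxyd2, with 70.4% and 79.6% in 1 barcode. After thinning, Lyve1 was detected in 15.2% of those led by Serpinb6a and 30% of those led by Mmp9. The 16 led by Fxyd2 had 2599 CPM of C1qa and 891 CPM of Hmox1, and 50% of them had a Ctsk UMI, with 62.8% of the Ctsk UMIs in 1 barcode. After thinning 25% of them had one, as did 30% of those led by Mmp9, 12.1% of those led by Serpinb6a and 0% of those led by Ctla2a or by S1pr1. The 10 led by Mmp9 had 1629 CPM of Mmp12 and 1886 CPM of C1qa, with 65.8% of the Mmp12 UMIs in 1 barcode. The 4 led by S1pr1 had 674 CPM of Mmp12 and 2504 CPM of Spp1, with 64.3% and 90.4% of these UMIs in 1 barcode.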

How the data were processed

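The libraries of day 3, day 6 and day 10 were deposited as raw UMI count matrices of 31053 genes, made by the authors with Cell Ranger 3.0.2 against mm10, per the submitters' processing notes. The annotation release and any sorting gates are not given in the sources used here. The members, gene lists and marker lists were chosen with earlier results of these data known, and the added alternatives after seeing the data (leaving out endothelial-marker barcodes or the top 5% by Lyve1 and Cd163, comparing within the cluster with most members, leaving out the barcode with most UMIs of a score gene, and the mean of CPM per barcode for day 6 and between days).

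UMIs were summed over the barcodes of a set and divided by the set's total to give CPM. No test was run, because each day has 1 library. Ratios carry exact conditional binomial, CPM exact Poisson and shares exact Clopper-Pearson 95% intervals. Genes entered at a mean of 20 CPM over the 2 sets, a set with under 3 UMIs was taken at 3, and a gene was called at 1.5-fold. The comparison was run on simulated Poisson counts of 2 summed sets, with no spread between barcodes. That run does not show how the intervals behave where single barcodes weigh on a sum. For shares, barcodes were thinned once to 2000 UMIs. Barcodes with at least 10 UMIs of the endothelial list are called endothelial-marker barcodes. Pairs of days shared at most 2 barcode sequences, and none was kept in both libraries. Scrublet called 5, 3 and 4 barcodes as doublets at days 3, 6 and 10, none of them members, and undetected doublets may remain.

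Clusters came from 2000 variable genes, 30 principal components, 15 neighbours and Leiden resolution 0.8 (scanpy 1.11.5, leidenalg 0.10.2, Python 3.11.15, scipy 1.17.1). TMM factors came from edgeR 4.0.16 and median-of-ratios factors from DESeq2 1.42.0, as alternatives. Named genes are the 12 highest and the 12 lowest ratios of a comparison among genes at 100 CPM or more in 1 set, leaving out score genes, mitochondrial, ribosomal protein and hemoglobin genes, unnamed gene models and markers of other cell types. To these come the 2 genes with the largest ratio in each direction of each of 32 lists, and the families of the score genes. H2-DMa, H2-DMb1, Ccl6, Ptges and the other genes outside this rule were chosen after their values were seen. Counts of 35 gene symbols shared by several identifiers were not merged.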

Additional observations from a re-analysis of the deposited data

Results flagged for a closer look

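Barcodes with 10% or more of their UMIs from the mitochondrial genome were left out of all comparisons, and some of them carried the score genes. Among those with at least 200 genes and 2000 UMIs, 12 of 411 at day 10 (2.92%, exact binomial 95% interval 1.52 to 5.04%) and 12 of 437 at day 6 (2.75%, 1.43 to 4.75%) reached the lowest score of the members. At day 3 none of 379 did, so 3 barcodes of the total set the limit at 0.792%. The shares at days 6 and 10 lie above that limit and below the 5.99% and 7.86% of kept barcodes.

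A few genes of the lists were past 1.5-fold in opposite directions at day 10 and day 6, and the difference between the days was not tested. Irf7, a factor of the interferon response, was at 59.9 CPM in members and 32.2 CPM in others at day 10 (log2 ratio 0.90) and at 57.8 against 123 CPM at day 6 (-1.09). Jdp2, a repressor of AP-1 that takes part in osteoclast formation, was at 36.0 against 56.6 CPM at day 10 (-0.65) and at 149 against 75.6 CPM at day 6 (0.98). The neutrophil-attracting chemokine gene Cxcl3 was at 720 against 367 CPM at day 10 (0.97) and at 225 against 348 CPM at day 6 (-0.63), with 89.1% of its day 6 member UMIs in 1 barcode. The chemokine gene Ccl24 was at 34.9 against 16.1 CPM at day 10 (1.12) and at 22.2 against 34.7 CPM at day 6 (-0.64), from 32 and 10 member UMIs. Tnfrsf9, the costimulatory receptor CD137, was at 105 against 170 CPM at day 10 (-0.70) and at 73.4 against 35.3 CPM at day 6 (1.06), with 69.7% of its day 6 member UMIs in 1 barcode. Without the endothelial-marker barcodes the day 10 value of Jdp2 was -0.58 and the day 6 values of Cxcl3 and Ccl24 were -0.52 and -0.55, all within 1.5-fold. As a mean per barcode, Ccl24 was higher in members at day 6 as well (0.83). With all barcodes, none of the 12 named genes of each direction and none of the score genes ran opposite ways. Without the endothelial-marker barcodes, the ratios of Aqp1 and Sparc stayed above 1.5-fold at day 10. The ratio of Sparc at day 6 was then 0.931, within 1.5-fold. For Aqp1 the day 6 levels were 4.75 CPM in members and 8.4 CPM in others. Its day 6 ratio of 0.848 was set by the floor of 3 UMIs, so no direction is read from it.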

How the results depend on the processing

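Each day has 1 library, so no replicate could be left out. No paired analysis was possible because the groups hold 1 library each. At day 3 the alternatives were run only for the share of members, which lay between 0.114% and 0.569%. In day 10 members, the counts of genes called higher and lower were 943 higher with the top 2.5% by score, 340 higher with the top 10%, 927 and 478 against all other barcodes, 292 and 492 with TMM, 291 and 493 with median-of-ratios factors, 1443 and 718 from 5 CPM, 76 and 80 from 100 CPM, and 121 and 107 at 2-fold. At day 6 they were 726 higher with the top 10%, 568 and 931 with TMM, 2339 and 991 from 5 CPM, and 358 and 239 at 2-fold. Between day 10 and day 6 members they were 856 and 750 with TMM, 1068 and 2240 from 5 CPM, and 180 and 376 at 2-fold. Fewer or more genes enter at another CPM minimum, and a higher fold calls fewer. The share of members was 4.09% at day 10 and 2.54% at day 6 with the top 2.5%, and 15.4% and 12.5% with the top 10%. With the top 10% the left-out ratio of Ctla2a was 3.37 and of Fxyd2 2.12, and the overlaps with the Nos2, Axl and Mmp12 sets were 20.4%, 12.2% and 11.9%. Without endothelial-marker barcodes the left-out ratio of Ctla2a was 1.95. Without thinning the detected shares were 71%, 61%, 68%, 26% and 96% for Ctla2a, Fxyd2, S1pr1, Mmp9 and Serpinb6a.

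A few named genes turned round. The log2 ratio of Saa3 was 0.82 with the top 10% and 1.01 without Ctla2a in the score, and that of Hp 0.26 with the score on thinned barcodes. The ratio of Fabp4 was -0.76 without endothelial-marker barcodes and -1.51 within the cluster with most members, and that of Retnla 0.13 within that cluster. The causes were not tested. Of all single-gene values, 458 stayed within the counting interval of the reported ratio, 203 moved outside it in the same direction or for genes not called, and 6 turned round. Of the list medians 706 stayed within 1.5-fold and 27 did not. The number of UMIs limits the genes at under 20 CPM and the 33 members of day 6.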

Other observations

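A few single genes, chosen after their values were seen, also differed at day 10. P2ry6, a receptor for extracellular UDP that prompts uptake by phagocytes, was at 148 CPM in members and 92.9 CPM in other C1qa-positive barcodes, and at 171 and 110 CPM at day 6. The C-type lectin gene Clec10a was at 100 against 42.3 CPM at day 10 (2.37-fold, 1.84 to 3.03) and at 200 against 57.6 CPM at day 6. Within the cluster with most members, however, Clec10a was called lower in day 10 members. Without the top 5% by Lyve1 and Cd163 and the endothelial-marker barcodes it was not among the genes called. Stab1, a scavenger receptor for phosphatidylserine, was at 444 against 208 CPM (2.14-fold, 1.91 to 2.40) and was detected in 85 of 100 members. Of 8 growth factor genes, 1 was called higher and 2 lower, and of 14 antioxidant genes, 1 (Hmox1) higher and 3 lower. Among all genes 9.69% were called higher and 5.5% lower, and these counts are too small to set apart from those shares. Pdgfa, a mitogen for fibroblasts, was at 122 against 66.2 CPM (1.84-fold, 1.48 to 2.29). Gdf15, a stress-induced cytokine, was at 49.0 against 93.6 CPM. Slc7a11, the cystine transporter, was at 204 against 362 CPM and the peroxiredoxin gene Prdx1 at 834 against 1476 CPM. At day 6 Slc7a11 lay at 223 against 249 CPM and Prdx1 at 970 against 1281 CPM, and neither was called.

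Arg1, arginase of alternatively activated macrophages, was abundant and nearly equal at day 10, at 4267 against 4044 CPM. At day 6 it was at 2381 against 1444 CPM, with 49.2% of its member UMIs in 1 barcode. The metallothionein gene Mt2 was at 627 against 548 CPM at day 10 and at 369 against 168 CPM at day 6, with 65.1% of its day 6 member UMIs in 1 barcode.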
